A study of Mus musculus with 9 samples.

Results

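The 48 genes described here encode the machinery that brings proteins into mitochondria and then folds, trims or degrades them. They were taken by name from the 26445 entries of the deposited gene table, by a rule that uses names alone. The name rule took every entry whose symbol starts with Tomm or Timm and a digit, pseudogenes left out, which gave 24 entries. A further 24 genes were named singly, for the SAM complex, the import motor, the disulfide relay, the peptidases, the matrix chaperones and the proteases. All 48 were found, each under a single symbol. Tomm6os, an antisense RNA that matches the name pattern, is the only member that is not annotated as protein-coding.

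Most mitochondrial proteins are encoded in the nucleus and made in the cytosol, and they enter through the TOM complex of the outer membrane. From there the SAM complex inserts outer membrane barrels, the small Tim chaperones and the disulfide relay handle proteins of the intermembrane space, and the TIM23 and TIM22 complexes serve the inner membrane and the matrix, with a motor built on the mitochondrial Hsp70 (Hspa9). Peptidases then remove targeting sequences, chaperones fold the arrivals and proteases clear damaged or unassembled proteins, a system known for its own stress programme, the mitochondrial unfolded protein response.

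Polyadenylated RNA was sequenced from cultured mouse cells of the corneal epithelium, listed as line iCell-0093a with wild-type genotype, under 21%, 8% or 1% oxygen. There were 3 libraries per level, and no other agent or allele is named. Mitophagy and mitochondrion-related expression under physiological and pathological hypoxia are the subject of the series, but the labels give neither the exposure time nor which level stands for which state. They do not say whether libraries of a level came from separate cultures, so p-values measure only the spread between these libraries, which may be technical.

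The values are FPKM, fragment counts scaled to transcript length and to the mapped total of a library, which can be compared between genes because they are scaled to length. Differences were tested with limma on log2(FPKM + 1), as the lower minus the higher oxygen level, in 1 fit to all 9 libraries over the 11856 genes that reached 1 FPKM in 3 or more libraries. A gene is called at a Benjamini-Hochberg adjusted p under 0.05. Fold changes are on this scale, which understates the change of low genes. The filter kept 47 of the 48 members and left out Tomm6os, which lay between 0.171 and 0.381 FPKM.

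Libraries of the same level correlated at 0.9708 to 0.9857 across genes, on the log2 scale. Libraries of different levels correlated at 0.9563 to 0.9812, so the ranges overlapped. The lowest values within a level were at 21% oxygen (0.9708 to 0.9818). Genes are not independent replicates. The cells carried the epithelial transcripts Krt8, Krt18, Epcam and Cdh1, and the basal keratin Krt14 at 41.4 to 81.9 FPKM. The corneal regulator Pax6 stayed at or under 0.0208 FPKM and the basal regulator Trp63 at or under 0.836. Krt13 and Ehf, of the same list, did not exceed 0.108. The 15 epithelial markers summed to 1211 to 1570 FPKM at 21%, 1525 to 1544 at 8% and 1463 to 1686 at 1%. Of the 11 that were tested, 2 were called higher and 1 lower at 8% against 21%, and none in the other comparisons. Among all tested genes 8.38% were called higher and 14.9% lower at 8% against 21%. Of 13 stromal markers 4 passed the filter, Vim at 764 to 1017 FPKM, S100a4 at 499 to 951, Twist1 at 30.7 to 40.3 and Pdgfra at 6.89 to 9.40, beside Krt8 at 474 to 683, while the keratocyte genes Lum and Dcn stayed at or under 0.0684. The stromal list summed to 1327 to 1759.5 FPKM at 21%, 1695 to 1781 at 8% and 1598 to 1829 at 1%, and Vim alone of the 4 was called, higher at 8% against 21%. The leukocyte markers Ptprc, Adgre1 and Itgam were at or near 0. Yet the summed level of 7 leukocyte markers, nearly all of it Cd68, was 19.2 to 29.8 FPKM at 21%. It was 42.6 to 47.0 at 8% and 32.3 to 41.8 at 1%. Only Cd68 and Csf1r of these were tested. Both were called higher at 8% against 21%, and neither was called in the other comparisons. In 21% replicate 3, 18 genes of DNA replication summed to 409 FPKM, against 155 and 212 in the other 21% libraries, 139 to 144 at 8% and 183 to 226 at 1%. At 8% against 21% oxygen 4 of these 18 genes were called, all lower, where 14.9% of all tested genes were called lower. All 18 estimates were below 0, as were 55.8% of those of all genes, with a median of −0.74 beside −0.04. In 11 of the 18 every 8% library lay below every 21% library, as in 25.5% of all genes. At 1% against 21% none was called, with 17 estimates below 0 and a median of −0.16. The part of these markers in the member results was not tested, and results are given below without 21% replicate 3 where that changed them.

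The most abundant members were the matrix chaperones Hspd1, with a mean of 228 FPKM over the 9 libraries, and Hspa9 with 198. Together these 2 genes made up 29.5% to 37.0% of the summed FPKM of all members. The outer membrane receptor Tomm22 followed with 78.6 and the chaperonin lid Hspe1 with 69.8. At the low end of the coding members stood the inner membrane peptidase Immp2l with 1.12 and the TIM23 subunit Timm21 with 2.78. Summed over all members, the level was 1348 to 1517 FPKM at 21% oxygen, 1188 to 1241 at 8% and 1265 to 1315 at 1%, so the 3 levels did not overlap. As a share of all FPKM this was 0.424% to 0.477% at 21%, 0.366% to 0.382% at 8% and 0.380% to 0.398% at 1%, where the ranges at 8% and 1% overlapped.

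**Figure D1:**
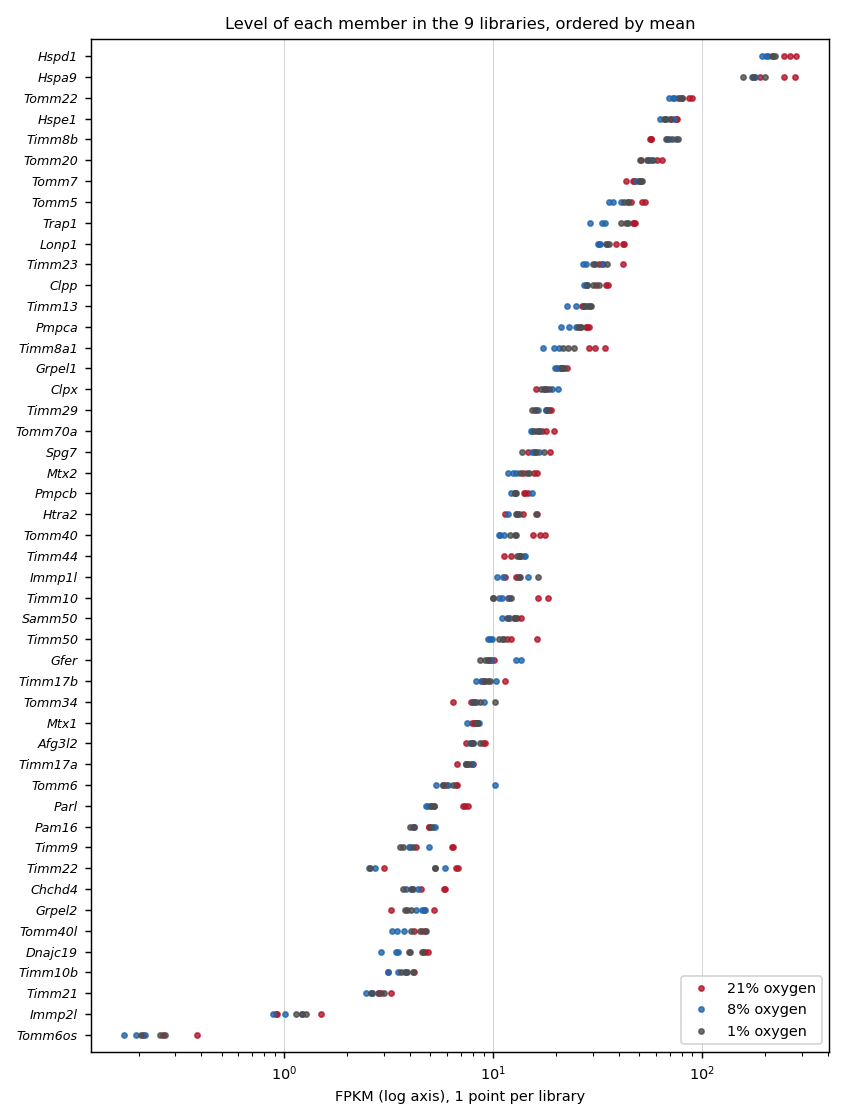
FPKM of each of the 48 members on a log axis, 1 point per library, coloured by oxygen level and ordered by mean. Members span from Tomm6os, under 0.382 FPKM in every library, to Hspd1, over 193 in every library, and the differences between oxygen levels are small beside the differences between genes.

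At 8% against 21% oxygen, 16 of the 47 tested members fell and 1 rose, where 14.9% of all tested genes fell and 8.38% rose (23.3% called in all). Each role held at least 1 of the members that fell, but most roles held only 1 or 2, too few to speak for a whole step. The fall was modest, between 0.20 and 0.68 on the log2 scale. The median over the 47 members was −0.14, beside −0.04 over all genes, and 36 of the 47 estimates were below 0, as were 55.8% of those of all genes. An unadjusted p under 0.05 was reached by 24 of the 47 and by 38.0% of all genes. In 19 members every 8% library lay below every 21% library, a pattern seen in 25.5% of all genes, and in 3 members every 8% library lay above, seen in 15.4%. In bulk RNA such as this, fewer cells of a type and less RNA per cell cannot be told apart.

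At 1% against 21% oxygen, 3 members fell (Parl, Tomm40 and Timm8a1) and 1 rose (Timm8b), where 2.89% of all genes fell and 1.35% rose (4.24% called in all). The median of the members was −0.09 and that of all genes −0.05, with 35 of 47 estimates below 0 against 60.0% of all. An unadjusted p under 0.05 was reached by 14 of 47, against 23.3%. All 1% libraries lay below all 21% libraries in 16 members, against 19.2% of genes, and above them in 4, against 9.06%. At 1% against 8% oxygen no member was called, where 0.127% of all genes were (0.0675% higher and 0.059% lower), and that comparison is described further on. The 3 comparisons share libraries in pairs and are not independent of each other.

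These counts moved with the libraries and the scaling. Settings in which a call was lost are named below for each gene, apart from the fit with the replicate number as a block. That fit is left out there because the labels state no pairing by number. Its lost calls are given at the end, and the ranges of adjusted p include it. Without 21% replicate 1 or 8% replicate 3 only 9 members were called lower at 8% against 21%. Of all genes, 9.07% and 7.91% were called lower in these 2 fits, against 14.9% in the main fit. Without 8% replicate 1 or 2 there were 10 lower members, beside 8.83% and 10.2% of all genes. Without 21% replicate 3 there were 15, having gained Hspa9, Timm9 and Timm10 and lost Clpp, Mtx2, Tomm22 and Tomm70a. In that fit 14.1% of all genes were called lower. The higher share among all called genes was 35.9% as deposited, 50% after median-ratio rescaling, 46.6% after quantile normalization and 31.0% after scaling to the same FPKM sum, and the members called lower then numbered 11, 13 and 16. At 1% against 21% the corresponding shares were 31.8% as deposited, 54.6%, 47.7% and 16.3%, and the members called lower numbered 3, 2 and 6. With these 3 scalings, in the same order, 11.3%, 11.4% and 16.7% of all genes were called lower at 8% against 21%. At 1% against 21% it was 1.55%, 1.47% and 6.56%, beside 2.89% as deposited. In 1% against 21% oxygen the members called lower were 1 without 21% replicate 1 or any 1% library and 9 without 21% replicate 3. Of all genes, 0.331% were called lower there without 21% replicate 1 and 5.17% without 21% replicate 3. Without 1% replicates 1 to 3 it was 0.348%, 0.381% and 1.22%. No estimate of a called member changed sign in any of the alternatives, in the comparison where it was called.

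**Figure D2:**
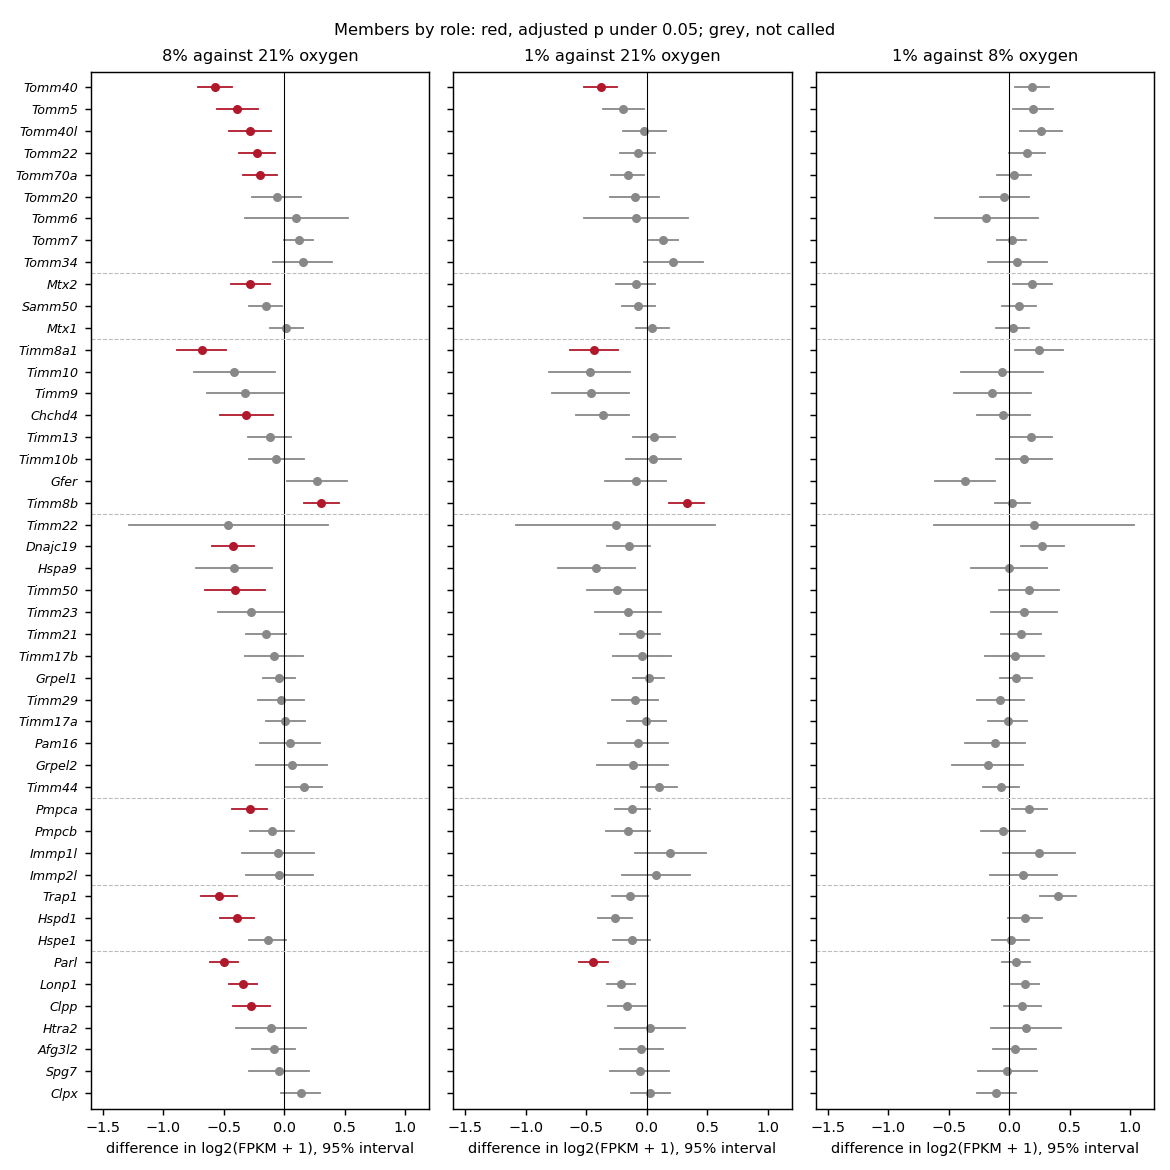
Difference in log2(FPKM + 1) with its 95% interval for the 47 tested members in the 3 comparisons, grouped by role with dashed lines between roles. The red, called members lie to the left at 8% against 21% oxygen, from −0.20 for Tomm70a to −0.68 for Timm8a1, with Timm8b alone on the right at 0.30, and no member is red at 1% against 8%.

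At the outer membrane, 5 of 9 genes of the TOM complex and its partners fell at 8% oxygen and none rose. Among all tested genes 14.9% fell and 8.38% rose. Tomm40 (ENSMUSG00000002984; chromosome 7, 19701313 to 19715438 on GRCm38, as are all positions here) encodes the barrel through which nearly all imported proteins pass. Its libraries gave 16.7, 15.6 and 17.8 FPKM at 21% oxygen, 10.7, 11.3 and 10.7 at 8% and 12.9, 12.1 and 12.7 at 1%. Every library at the lower oxygen levels lay below every 21% library, and the 1% libraries also lay above those at 8%. Tomm40 transcripts fell at 8% (−0.57, SE 0.0610, adjusted p = 0.00142) and at 1% (−0.38, SE 0.0610, adjusted p = 0.02) against 21% oxygen. The call at 8% was kept in all 19 alternatives, and that at 1% was lost without 21% replicate 1, without any 1% library and in a fit to the 6 libraries compared (adjusted p between 0.012 and 0.0917 over its 19 alternatives).

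Tomm5 (ENSMUSG00000078713; chromosome 4, 45105208 to 45108114), a small subunit that sits beside the channel, gave 51.6, 53.3 and 45.6 FPKM at 21% oxygen, 40.9, 37.3 and 36.0 at 8% and 42.4, 44.4 and 44.3 at 1%. All 8% and 1% libraries lay below the 21% libraries. Tomm5 fell at 8% (−0.39, SE 0.0732, adjusted p = 0.00894) in all 19 alternatives, while the difference at 1% was −0.19 with an adjusted p of 0.162. Tomm22 (ENSMUSG00000022427; chromosome 15, 79670861 to 79673400), the central receptor that holds the complex together, gave 86.3, 76.6 and 89.7 FPKM at 21% oxygen, 73.5, 69.6 and 72.3 at 8% and 80.1, 80.4 and 78.6 at 1%. The 21% and 8% libraries did not overlap, whereas the 1% libraries fell inside the 21% range. Tomm22 fell at 8% (−0.22, SE 0.0640, adjusted p = 0.0377).

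Tomm70a (ENSMUSG00000022752; chromosome 16, 57121703 to 57156705), the receptor for carrier proteins, gave 17.2, 17.8 and 19.4 FPKM at 21% oxygen, 15.3, 16.5 and 15.2 at 8% and 16.2, 15.7 and 16.5 at 1%, with every 21% library above all the others. The fall at 8% was called (−0.20, SE 0.0611, adjusted p = 0.0465). Tomm40l (ENSMUSG00000005674; chromosome 1, 171216011 to 171222514), a paralogue of Tomm40, gave 4.56, 4.71 and 4.16 FPKM at 21% oxygen, 3.28, 3.76 and 3.48 at 8% and 4.75, 4.44 and 4.03 at 1%. It was low only at 8%, where it fell (−0.28, SE 0.0768, adjusted p = 0.032), and the 1% libraries overlapped those at 21%. The aligned coding sequences of Tomm40 and Tomm40l are 60.1% identical, with no shared run longer than 17 bases. On the opposite strand 64.3% of the exonic bases of Tomm40l lie in exons of Nr1i3, which did not exceed 0.0427 FPKM.

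The calls of Tomm22, Tomm70a and Tomm40l depended on the settings. That of Tomm22 was lost without 21% replicate 1 or 3, any 8% or any 1% library, without the filter, after median-ratio rescaling and in the fit to 6 libraries (adjusted p between 0.008 and 0.107). That of Tomm70a was lost with any single library left out as well as without the filter, with median-ratio or quantile scaling, in the fit to 6 libraries and without the trend (adjusted p between 0.037 and 0.131), and that of Tomm40l without 21% replicate 1 or 2, 8% replicate 1 or 3 or 1% replicate 2, without the filter, with either scaling and in the fit to 6 libraries (adjusted p between 0.024 and 0.101), all ranges being over the alternatives run.

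Tomm20, the presequence receptor, was not called. It stood at 58.6 ± 6.83 FPKM at 21%, 55.8 ± 1.03 at 8% and 54.4 ± 3.83 at 1% oxygen (mean ± SD, n = 3), with 95% intervals of −0.27 to 0.14 at 8% and −0.30 to 0.10 at 1% against 21%. Gm14494, which holds 5.89% of the 50-base windows of Tomm20, was listed at 28.1 to 39.3 FPKM and not called. The small subunit Tomm7 had higher libraries at both lower levels, without overlap, but its estimates of 0.12 and 0.14 were not called (adjusted p = 0.129 and 0.155). After median-ratio rescaling Tomm7 was called higher at 8%. Tomm34, a cytosolic cochaperone, stood at 7.51 ± 0.961, 8.43 ± 0.550 and 8.92 ± 1.1 FPKM and was not called (adjusted p = 0.332 at 8% and 0.26 at 1% against 21%). For Tomm6, 86.7% of its 50-base windows also occur in the read-through gene Gm21981, and its libraries ranged from 5.31 to 10.2 FPKM with the highest in 8% replicate 3. Gm21981 fell at 8% (−0.45, adjusted p = 0.0345), and the sources used here do not say how reads were divided between these genes.

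In the SAM complex, which inserts barrel proteins into the outer membrane, 1 of 3 genes fell at 8% oxygen, where 14.9% of all genes did, so the count says little about the complex. Mtx2 (ENSMUSG00000027099; chromosome 2, 74825803 to 74878431), a metaxin on the cytosolic face of the complex, gave 16.2, 13.9 and 15.7 FPKM at 21% oxygen, 12.9, 11.8 and 12.4 at 8% and 14.8, 13.5 and 14.5 at 1%. The 21% and 8% libraries did not overlap, and those at 1% overlapped the 21% range. Mtx2 fell at 8% (−0.28, SE 0.0702, adjusted p = 0.0236). This call did not hold without 21% replicate 1 or 3, without 8% replicate 2 or 3 and in the fit to 6 libraries (adjusted p between 0.0106 and 0.0754 over 19 alternatives). Samm50, the barrel insertase itself, stood at 13.0 ± 0.491, 11.6 ± 0.488 and 12.3 ± 0.661 FPKM at 21%, 8% and 1%, and was not called (−0.15, adjusted p = 0.1 at 8% against 21%). The other metaxin gene, Mtx1, kept within 7.48 to 8.59 FPKM and had estimates of 0.02 at 8% and 0.05 at 1%.

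In the intermembrane space 2 of 8 genes fell and 1 rose at 8% oxygen, counts near the shares of all genes (14.9% and 8.38%). Timm8a1 and Timm8b are paralogues of the small Tim family, whose members form rings that shield hydrophobic proteins, and the human counterpart of Timm8a1, TIMM8A, is the gene of a deafness and dystonia syndrome. The family is marked by cysteines in 2 pairs, with 3 residues between the cysteines of a pair. The coding stretches from the first to the last of these 4 cysteines are shown for the family members named here, because Timm8a1 and Timm8b moved in opposite directions, with the cysteine codons in capitals (5′ to 3′, GENCODE M21 transcripts).
Timm8a1: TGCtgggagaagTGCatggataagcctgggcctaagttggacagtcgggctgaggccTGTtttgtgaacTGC
Timm8b: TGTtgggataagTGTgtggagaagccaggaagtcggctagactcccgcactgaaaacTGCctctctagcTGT
Timm9: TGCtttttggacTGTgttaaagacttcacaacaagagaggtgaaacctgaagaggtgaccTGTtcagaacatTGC
Timm10: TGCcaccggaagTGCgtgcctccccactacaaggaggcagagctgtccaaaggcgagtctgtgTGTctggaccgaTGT
Timm13: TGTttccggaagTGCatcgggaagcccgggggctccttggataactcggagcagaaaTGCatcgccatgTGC

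Timm8a1, Timm8b and Timm13 have 14 codons between the 2 pairs, Timm9 has 15 and Timm10 has 16. Over the whole coding sequence Timm8a1 and Timm8b are 52.2% identical when aligned, and their longest shared run is 11 bases. Of the 50-base windows of Timm8a1, 41.0% also occur in the gene Gm9797, which did not exceed 0.920 FPKM, and none of those of Timm8b occur in another gene.

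Timm8a1 (ENSMUSG00000048007; chromosome X, 134537256 to 134541865) gave 30.8, 34.4 and 28.7 FPKM at 21% oxygen, 20.6, 19.5 and 17.3 at 8% and 21.5, 22.8 and 24.3 at 1%. Every 21% library lay above every library at the lower levels, and the 1% libraries lay above those at 8%. It had the largest fall of the members at 8% (−0.68, SE 0.0877, adjusted p = 0.00235), kept in all 19 alternatives. At 1% it also fell (−0.44, SE 0.0877, adjusted p = 0.037). The latter call did not hold without 21% replicate 1 or 2, 8% replicate 1 or 2 or any 1% library, without the filter, after quantile normalization and in the fit to 6 libraries (adjusted p between 0.0219 and 0.128).

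Timm8b (ENSMUSG00000039016; chromosome 9, 50603910 to 50605320) gave 56.4, 57.1 and 57.2 FPKM at 21% oxygen, 69.5, 74.7 and 67.7 at 8% and 71.5, 77.0 and 67.1 at 1%. All 6 libraries at 8% and 1% lay above the 3 at 21%, which were within 1 FPKM of each other. It was the single member that rose, at 8% (0.30, SE 0.0632, adjusted p = 0.0124) in all 19 alternatives and at 1% (0.33, SE 0.0632, adjusted p = 0.032). At 1% the rise was not called without 21% replicate 1 or 2, 8% replicate 1 or 1% replicate 1 or 2, without the filter and in the fit to 6 libraries (adjusted p between 0.0222 and 0.117 over 19 alternatives). On the opposite strand, 15.6% of its exonic bases lie in exons of Nkapd1, which did not exceed 5.28 FPKM.

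The ratio of Timm8b to Timm8a1 within a library does not depend on the scaling between libraries. It was 1.83, 1.66 and 1.99 at 21% oxygen, 3.38, 3.84 and 3.92 at 8% and 3.32, 3.39 and 2.77 at 1%. The ratio was thus higher in all 6 libraries at the lower levels than in any at 21%, while 8% and 1% overlapped. A two-sided exact permutation test gave p = 0.1 at 8% and at 1% against 21%, the smallest value that 3 against 3 libraries allow. In every library at 8% and 1%, Timm8a1 lay below and Timm8b above all 21% libraries. The separation of the ratio from 21% and this p were therefore fixed in advance and are no further result.

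Chchd4 (ENSMUSG00000034203; chromosome 6, 91462172 to 91473546), the oxidoreductase that traps cysteine proteins in the intermembrane space, gave 5.79, 5.86 and 4.50 FPKM at 21% oxygen, 4.36, 4.14 and 3.82 at 8% and 4.08, 3.70 and 4.03 at 1%. The 21% libraries lay above all others, with 21% replicate 3 nearest to them. At 8% it fell (−0.32, SE 0.0957, adjusted p = 0.0459), but the call was lost without 21% replicate 1 or 2, any 8% or any 1% library, without the filter, after median-ratio rescaling or quantile normalization and in the fit to 6 libraries (adjusted p between 0.00887 and 0.134 over 18 alternatives). At 1% against 21% Chchd4 was not called (−0.36, SE 0.0957, adjusted p = 0.0679). It was called lower there after scaling to the same FPKM sum and without 21% replicate 3 (−0.47, adjusted p = 0.0202). Without that library the estimate at 8% was −0.42 (adjusted p = 0.00887). Gfer, the oxidase that regenerates Chchd4, was not called and gave 10.0, 9.73 and 9.46 FPKM at 21% oxygen, 9.73, 13.6 and 12.9 at 8% and 9.15, 8.65 and 9.44 at 1%. Its 8% replicates 2 and 3 stood above every other library, and it was called higher at 8% without 8% replicate 1.

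Timm9 and Timm10, which together escort carrier proteins, had their high values in 21% replicates 1 and 2 only. Timm10 gave 16.3, 18.2 and 11.7 FPKM at 21% oxygen, 11.9, 11 and 10.6 at 8% and 10.0, 9.95 and 12.2 at 1%, and Timm9 gave 6.31, 6.43 and 4.27 FPKM at 21% oxygen, 4.92, 3.93 and 4.01 at 8% and 3.56, 3.71 and 4.11 at 1%. In both genes 21% replicate 3 lay within the range of the lower levels. Neither was called at 8% against 21% (Timm10 −0.41, adjusted p = 0.0755; Timm9 −0.32, adjusted p = 0.127). Without 21% replicate 3 both were called lower at 8%, Timm10 at −0.58 (adjusted p = 0.00956) and Timm9 at −0.48 (adjusted p = 0.0147), and at 1%, at −0.64 and −0.62 (adjusted p = 0.021 for each). Timm13, which pairs with Timm8a1, and Timm10b, a partner of the TIM22 complex, were not called and had estimates of −0.12 and −0.07 at 8%.

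In the TIM23 and TIM22 complexes and the import motor, 2 of 13 genes fell at 8% oxygen and none rose, close to the share of all genes that fell, 14.9%. Timm50 (ENSMUSG00000003438; chromosome 7, 28305516 to 28312072), the receptor that passes presequences to the TIM23 channel, gave 12.1, 11.6 and 16.2 FPKM at 21% oxygen, 9.49, 9.92 and 9.63 at 8% and 11.1, 10.6 and 11.1 at 1%. The 3 levels did not overlap, and 21% replicate 3 stood well above the other 21% libraries. Timm50 fell at 8% (−0.41, SE 0.108, adjusted p = 0.029), and the call was lost without any 8% library, without the filter, after median-ratio rescaling and in the fit to 6 libraries (adjusted p between 0.0135 and 0.082). Without 21% replicate 3 the fall was smaller, −0.27, and was still called (adjusted p = 0.0135).

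Dnajc19 (ENSMUSG00000027679; chromosome 3, 34056020 to 34081321), a J-domain protein that stimulates the motor, gave 4.61, 4.70 and 4.88 FPKM at 21% oxygen, 3.42, 3.51 and 2.91 at 8% and 4.0, 4.55 and 3.96 at 1%. The 3 levels did not overlap, in the order 21%, 1% and 8% from high to low. Dnajc19 fell at 8% (−0.42, SE 0.0773, adjusted p = 0.008), in all 18 alternatives that kept it, and the difference at 1% against 21% was −0.15 (adjusted p = 0.289). A processed copy, Dnajc19-ps, holds 5.43% of its 50-base windows and was not called (2.08 to 4.01 FPKM).

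Hspa9, the mitochondrial Hsp70 that drives the motor, gave 248, 279 and 190.4 FPKM at 21% oxygen, 180.0, 174 and 177 at 8% and 176, 158 and 199 at 1%. The high values were 21% replicates 1 and 2, while 21% replicate 3 lay within the 1% range. Hspa9 was not called at 8% (−0.41, SE 0.138, adjusted p = 0.0619) or at 1% (−0.42, SE 0.138, adjusted p = 0.122) against 21%, but without 21% replicate 3 it was lower at both (−0.57 in each, adjusted p = 0.0101 and 0.0241).

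The channel gene Timm23 stood at 35.7 ± 5.18, 29.4 ± 3.55 and 31.9 ± 2.70 FPKM at 21%, 8% and 1% oxygen and was not called. Of its 50-base windows 90.9% occur in other genes, among them Gm10171, which was itself listed at 19.9 to 41.0 FPKM, so its level is uncertain. Timm44, which tethers Hspa9 to the channel, stood at 12.3 ± 1.03, 13.9 ± 0.467 and 13.2 ± 0.286 FPKM, with the lowest 8% library just above the highest at 21%. It was not called (0.17, adjusted p = 0.0984), though it was called higher at 8% after median-ratio rescaling and without 21% replicate 2. Timm22, the carrier translocase, was the most variable tested member across libraries and gave 3.00, 6.74 and 6.64 FPKM at 21% oxygen, 5.88, 2.53 and 2.73 at 8% and 5.24, 2.56 and 5.24 at 1%. Its values lay either at 3.00 or below or at 5.24 or above, and each level held libraries of both kinds. The remaining 7 genes of this group (Timm17a, Timm17b, Timm21, Timm29, Pam16, Grpel1 and Grpel2) had estimates between −0.15 and 0.06 at 8% against 21%.

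Of the 4 peptidases that remove targeting sequences, only Pmpca was called, lower at 8% oxygen, where 14.9% of all tested genes fell. Pmpca (ENSMUSG00000026926; chromosome 2, 26389339 to 26397122), the substrate-binding subunit of the matrix processing peptidase, gave 28.9, 28.2 and 27.8 FPKM at 21% oxygen, 25, 23.1 and 21.2 at 8% and 25.6, 26.2 and 26.1 at 1%. The 3 levels did not overlap. Pmpca fell at 8% (−0.29, SE 0.0628, adjusted p = 0.0156). That call was missing without 21% replicate 1 and in the fit to 6 libraries (adjusted p between 0.0108 and 0.0516 over 19 alternatives). Exons of Inpp5e on the opposite strand, which did not exceed 5.40 FPKM, hold 20.4% of the exonic bases of Pmpca. The catalytic partner Pmpcb stood at 14.3 ± 0.368, 13.4 ± 1.69 and 12.8 ± 0.0586 FPKM at 21%, 8% and 1%, with a 95% interval of −0.28 to 0.08 at 8% against 21%. The inner membrane peptidase genes Immp1l and Immp2l had estimates of −0.05 and −0.04.

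Among the matrix chaperones, Trap1 and Hspd1 fell at 8% oxygen, where 14.9% of all tested genes did, and Hspe1 was not called. Trap1 (ENSMUSG00000005981; chromosome 16, 4039971 to 4077827), the mitochondrial member of the Hsp90 family, gave 47.4, 46.7 and 47.5 FPKM at 21% oxygen, 33.2, 34.2 and 29.2 at 8% and 43.3, 44.3 and 41.0 at 1%. The 3 levels did not overlap, with 8% lowest and 1% close to 21%. Trap1 fell at 8% (−0.54, SE 0.0658, adjusted p = 0.002) in all 19 alternatives, and at 1% against 21% the difference was −0.14 (adjusted p = 0.255).

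Hspd1 and Hspe1 encode the barrel and the lid of the matrix chaperonin and lie head to head on chromosome 1, Hspd1 at 55077835 to 55088243 on the minus strand and Hspe1 at 55088132 to 55091307 on the plus strand, so that 112 exonic bases overlap. The stretch from 250 bases before to 50 after the start of Hspe1 is shown because a window of Hspd1 shares most of it. It is chr1:55087898-55088197 on the plus strand of GRCm38.p6, from RefSeq, with a heat shock element in capitals, searched as TTC, GAA and TTC with 2 bases of any kind between neighbours. Overlapping matches on the 2 strands begin 89 and 84 bases before the start.
Hspe1 promoter: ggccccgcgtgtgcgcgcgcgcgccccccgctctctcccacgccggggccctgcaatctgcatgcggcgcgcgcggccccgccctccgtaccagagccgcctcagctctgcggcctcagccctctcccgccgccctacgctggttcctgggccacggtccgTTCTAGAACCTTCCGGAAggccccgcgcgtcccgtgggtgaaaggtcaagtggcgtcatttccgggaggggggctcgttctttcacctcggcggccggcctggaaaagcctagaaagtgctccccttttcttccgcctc

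RefSeq gives Hspd1 start sites 95 and 216 bases from that of Hspe1, and their windows share 4 and 285 bases with the sequence above. The heat shock element was found in 3 of the 41 members that have a RefSeq window (Hspd1, Hspe1 and Timm9) and in 0.603% of 32851 windows of the same length. The Hspd1 match lies in the window that shares 285 bases, so it is the same stretch as that of Hspe1 and not a separate match.

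Hspd1 gave 265, 281 and 246 FPKM at 21% oxygen, 206, 203 and 193 at 8% and 219.6, 216 and 224 at 1%. The 3 levels did not overlap, with 21% highest and 8% lowest. Hspd1 fell at 8% (−0.39, SE 0.0620, adjusted p = 0.00485) in all 19 alternatives. At 1% the estimate missed the threshold (−0.26, SE 0.0620, adjusted p = 0.0528), and it was called without 21% replicate 3, among genes averaging 5 FPKM or more and after scaling to the same FPKM sum (adjusted p between 0.0225 and 0.175). Processed copies hold 44.8% of its 50-base windows, and of these Hspd1-ps3, with the most shared windows, was listed at 5.6 to 10.8 FPKM and not called.

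Hspe1 gave 76.1, 75.1 and 71.1 FPKM at 21% oxygen, 66.3, 73.1 and 62.7 at 8% and 67.4, 65.6 and 70.6 at 1%, with 8% replicate 2 inside the 21% range. Its estimates were −0.14 at 8% (adjusted p = 0.166) and −0.13 at 1% (adjusted p = 0.301) against 21%, with intervals of −0.29 to 0.01 and −0.28 to 0.03. Of the 50-base windows of Hspe1, 36.1% also occur in other genes, mostly in AC117239.2, for which no value was listed. The ratio of Hspd1 to Hspe1 within a library was 3.48, 3.75 and 3.46 at 21% oxygen, 3.11, 2.78 and 3.08 at 8% and 3.26, 3.29 and 3.18 at 1%. It was highest at 21% and lowest at 8% without overlap, and a two-sided exact permutation test gave 0.1, the smallest p possible, in each of the 3 comparisons.

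Of the 7 protease genes, Parl, Lonp1 and Clpp fell at 8% oxygen and none rose, where 14.9% of all tested genes fell and 8.38% rose. Parl (ENSMUSG00000033918; chromosome 16, 20279818 to 20302387), the rhomboid protease of the inner membrane that cleaves the mitophagy kinase PINK1, gave 7.12, 7.56 and 7.32 FPKM at 21% oxygen, 4.88, 5.05 and 4.78 at 8% and 5.18, 5.19 and 5.06 at 1%. All 21% libraries lay far above the others, and the 1% libraries lay just above those at 8%. It fell at 8% (−0.50, SE 0.0518, adjusted p = 0.00133) and at 1% (−0.44, SE 0.0518, adjusted p = 0.00738), and both calls were kept in all 19 alternatives. Parl was the only member of which this held at 1% against 21%. Gm13181, which holds 11.5% of its 50-base windows, did not exceed 0.0617 FPKM.

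Lonp1 (ENSMUSG00000041168; chromosome 17, 56614297 to 56626887), the main matrix protease for oxidised proteins, gave 42.4, 41.7 and 38.6 FPKM at 21% oxygen, 31.7, 31.9 and 32.4 at 8% and 35.1, 34.5 and 36.0 at 1%. The 3 levels did not overlap, with 21% highest and 8% lowest. Lonp1 fell at 8% (−0.34, SE 0.0510, adjusted p = 0.00384) in all 19 alternatives. At 1% it was not called (−0.21, SE 0.0510, adjusted p = 0.0564) except without 21% replicate 3, among genes averaging 5 FPKM or more and after scaling to the same FPKM sum (adjusted p between 0.0236 and 0.181).

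Clpp (ENSMUSG00000002660; chromosome 17, 56990305 to 56996188), the proteolytic core of the ClpXP protease, gave 35.5, 31.1 and 34.7 FPKM at 21% oxygen, 28.2, 27.7 and 27.3 at 8% and 30, 28.1 and 32.0 at 1%. The 21% libraries lay above all 8% libraries and overlapped those at 1%. Clpp fell at 8% (−0.27, SE 0.0678, adjusted p = 0.0242), but not past the threshold without 21% replicate 1 or 3 or any 8% library (adjusted p between 0.0115 and 0.0768 over 19 alternatives). Its partner Clpx, the unfoldase that feeds it, stood at 17.2 ± 1.00, 19.1 ± 1.39 and 17.6 ± 0.789 FPKM, and its estimate of 0.14 at 8% was not called (adjusted p = 0.195). Htra2, a serine protease of the intermembrane space, stood at 13.8 ± 2.45, 12.6 ± 0.679 and 14 ± 1.72 FPKM and was not called, with an interval of −0.40 to 0.18 at 8% against 21%. On the opposite strand, 25.6% of the exonic bases of Htra2 lie in exons of Aup1, which reached 20.9 FPKM. Exons of Loxl3, which did not exceed 4.42 FPKM, hold 18.2%. The m-AAA protease genes Afg3l2 and Spg7 had estimates of −0.09 and −0.04 at 8%, neither called.

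**Figure D3:**
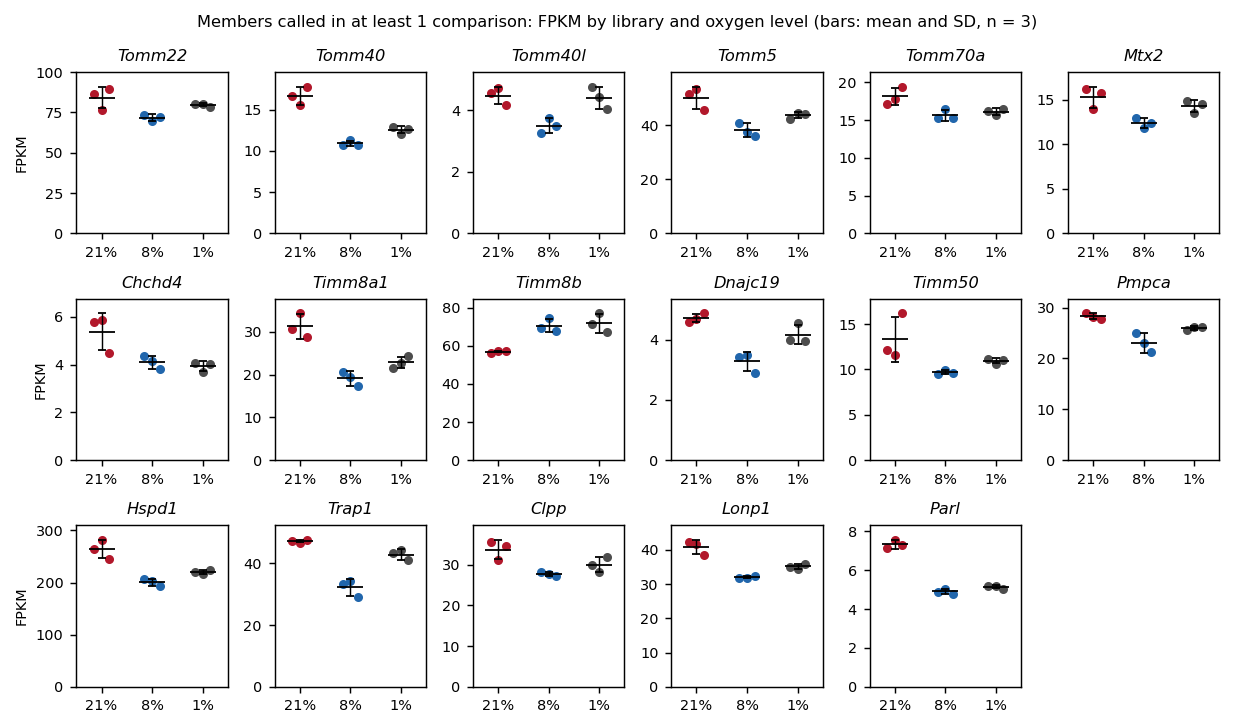
FPKM in each library for the 17 members called in at least 1 comparison, by oxygen level, with mean and SD of 3 libraries and axes that start at 0. In 16 panels the 8% libraries lie below those at 21%, and Timm8b alone is higher at 8% and 1%; the 1% libraries lie close to 8% for Parl and Chchd4 and close to 21% for Tomm40l and Tomm22.

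Summed by role, the matrix chaperones went from 385 ± 19.5 FPKM at 21% to 300.5 ± 13.3 at 8% and 331 ± 5.28 at 1% oxygen (mean ± SD, n = 3). The proteases summed to 138 ± 5.36, 120.1 ± 1.57 and 126 ± 1.99 FPKM, and the TOM group to 292 ± 5.97, 261 ± 3.50 and 276 ± 3.80. In these 3 roles the 21%, 1% and 8% libraries followed each other from high to low without overlap in FPKM as deposited. As a share of all FPKM, the protease libraries at 8% and 1% overlapped. Most of the matrix chaperone sum was Hspd1, with a mean of 264 FPKM at 21%. The TIM23, TIM22 and motor group, most of it Hspa9, spread from 323 to 429 FPKM within 21% oxygen, and the intermembrane space group overlapped between all levels.

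**Figure D4:**
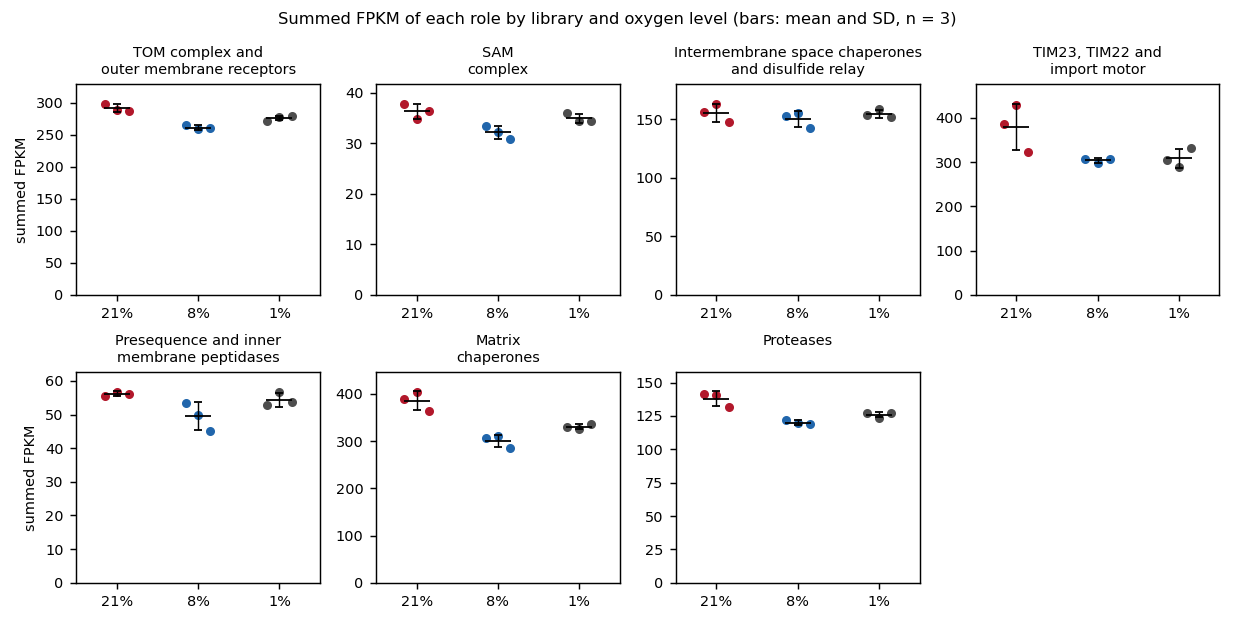
Summed FPKM of the members of each role in each library, by oxygen level, with mean and SD of 3 libraries and axes that start at 0. The TOM group, the matrix chaperones and the proteases are lowest at 8% without overlap between levels, whereas the intermembrane space group lies between 142 and 163 FPKM at every level.

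At 1% against 8% oxygen limma called no member, while 12 of 47 had an unadjusted p under 0.05, as did 19.0% of all genes. The alternatives called at most 1. Estimates were above 0 in 32 of 47 members and in 49.2% of all genes. In 13 members every 1% library lay above every 8% library, a pattern in 16.3% of all genes, and in 2 (Gfer and Grpel2) every 1% library lay below, a pattern in 16.8%. The 13 were Trap1, Dnajc19, Tomm40l, Tomm40, Timm8a1, Mtx2, Tomm5, Pmpca, Lonp1, Tomm22, Hspd1, Timm50 and Parl, and since the 8% libraries enter this comparison and the one with 21%, the order of these levels is not a separate result. Trap1 came nearest to a call (0.40, SE 0.0658, adjusted p = 0.0647). It was called higher at 1% without 21% replicate 2 or 3, among genes averaging 5 FPKM or more and in the fit to 6 libraries (adjusted p between 0.0325 and 0.244 over 19 alternatives).

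Other genes of these pathways were taken as fixed lists. Of 15 other import and assembly genes, 3 fell and 1 rose at 8% against 21% oxygen. The shares lower in this list and the next 3 were 20%, 11.8%, 25% and 9.09%, near the 14.9% of all genes. The motor regulator Dnajc15 fell (2.81 ± 0.11 to 1.78 ± 0.119 FPKM; −0.45, adjusted p = 0.00633), as did the outer membrane protein Dnajc11 (5.25 ± 0.159 to 4.05 ± 0.163; −0.31, adjusted p = 0.0134), while the inner membrane insertase Oxa1l rose (22.7 ± 2.25 to 30.2 ± 0.899; 0.40, adjusted p = 0.00846). Of 17 other chaperones and proteases, 2 fell (Phb, a prohibitin, −0.33, adjusted p = 0.0222; Afg3l1, an m-AAA subunit, −0.26, adjusted p = 0.0402) and 1 rose (Lactb, 0.49, adjusted p = 0.0447). Of 8 tested genes of MICOS, the complex that shapes cristae, 2 fell, led by Chchd6 (4.14 ± 0.437 to 2.41 ± 0.0192 FPKM, −0.59, adjusted p = 0.0033). The other was Dnajc11, which is on this list and on that of import and assembly genes, and so is counted in both. Of 11 regulators of the mitochondrial unfolded protein response only Cebpb fell (127 ± 10.3 to 95.8 ± 4.33 FPKM; −0.41, adjusted p = 0.00772). In none of these 4 lists did limma call a gene at 1% against 21% or at 1% against 8% oxygen, where an unadjusted p under 0.05 was reached by 2, 6, 1 and 2 genes of the lists in that order at 1% against 21% and 2, 0, 1 and 1 at 1% against 8%.

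Promoter windows of 250 bases before to 50 after the start (RefSeq, GRCm38.p6) were searched on both strands in the 41 matched members. The E-box CACGTG was present in 7 members and 7.15% of all windows. The core of the nuclear respiratory factor 1 motif, searched as GCGCA and GCGC with 1 base of any kind between them, was present in 6 members and 4.6% of windows, and ACGTG, the core of the hypoxia response element, which every CACGTG contains, in 11 members and 19.6% of windows. The C/EBP and ATF element TGATGNAA was in no member window and in 3.97% of all windows. The windows of the 2 small Tim genes that moved in opposite directions are shown, with CACGTG in capitals for Timm8a1 (chrX:134541621-134541920, minus strand) and the nuclear respiratory factor 1 core, matched on the minus strand, for Timm8b (chr9:50603651-50603950, plus strand).
Timm8a1 promoter: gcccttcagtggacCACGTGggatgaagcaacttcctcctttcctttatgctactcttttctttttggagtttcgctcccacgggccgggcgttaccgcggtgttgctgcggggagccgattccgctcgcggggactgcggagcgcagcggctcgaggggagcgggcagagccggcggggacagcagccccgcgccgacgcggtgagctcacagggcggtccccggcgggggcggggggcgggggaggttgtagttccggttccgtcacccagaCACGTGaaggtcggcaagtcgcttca
Timm8b promoter: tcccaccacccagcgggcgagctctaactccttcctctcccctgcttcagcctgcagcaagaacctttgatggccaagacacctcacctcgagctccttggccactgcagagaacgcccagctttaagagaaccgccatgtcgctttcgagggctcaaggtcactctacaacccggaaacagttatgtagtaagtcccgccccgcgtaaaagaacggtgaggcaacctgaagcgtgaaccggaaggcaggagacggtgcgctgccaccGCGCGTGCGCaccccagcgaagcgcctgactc

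The Timm8a1 window holds CACGTG at 236 bases before the start and 25 after it, and the Timm8b window holds its match 19 bases after the start. A match describes letters only, and binding was not measured.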

How the data were processed

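Per the labels, TRIzol RNA (1 µg) went into a stranded kit that selects polyadenylated RNA. The authors deposited FPKM per gene. The submitters' processing notes name HISAT2 2.0.4 and StringTie 1.3.4d, besides FastQC 0.11.8 and cutadapt 1.9.1, and build mm10. Annotation, strand setting and the division of shared reads are not given in the sources. Whole reads could not be recovered from the FPKM values (6.04% of positive values of single-transcript genes lay below 1 fragment in 100000000), so the depth is unknown and no counting interval is given.

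From these values, log2(FPKM + 1) of genes reaching 1 FPKM in 3 or more of 9 libraries was fitted with limma 3.58.1 in R 4.3.3, with a mean-variance trend and 1 mean per oxygen level. Tests were two-sided, with Benjamini-Hochberg adjustment over all genes in each comparison, and the code was tested on simulated data. The alternatives were other pseudocounts, filters and scalings, the 6 libraries compared alone, no trend, the replicate number as a block and each library left out. Members called in at least 1 comparison, and Tomm20, Timm23, Timm44, Hspa9, Hspe1 and Htra2 in any case, are named with values, other members by range or where their values were singled out after being seen, and up to 3 called genes of each pathway list. The members, lists and tests were chosen with earlier results of these data known. 1 listed marker is not reported here. Of the gene identifiers, 26378 of 26445 matched GENCODE M21, from which positions and shared 50-base windows were taken.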

Additional observations from a re-analysis of the deposited data

How the results depend on the processing

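Over the 19 alternatives, the calls of Hspd1, Lonp1, Parl, Timm8a1, Timm8b, Tomm40, Tomm5, Trap1 and Dnajc19 at 8% against 21% oxygen and of Parl at 1% against 21% were kept in every alternative that tested them. At 8% against 21%, a fit to the 6 libraries called 1606 genes and 9 lower members, where 8.78% of all genes were called lower. Median-ratio rescaling called 3 higher members, where 11.3% of all genes were called higher. At 1% against 21% (503 genes as reported), 222 genes were called without a filter on low values, 333 after quantile normalization, 929 after scaling to the same FPKM sum and 64 in the fit to 6 libraries. Lower members there numbered 5 among genes averaging 5 FPKM or more, 6 after scaling to the same FPKM sum and 1 in the fit to 6 libraries. Of all genes 5.62%, 6.56% and 0.304% were called lower in these settings. Higher members numbered 0 without a filter and in the fit to 6 libraries, beside 0.287% and 0.236% of all genes. At 1% against 8% (15 genes), 4 genes were called without a filter, 56 among genes averaging 5 FPKM or more and 484 in the fit to 6 libraries, the latter 2 settings with 1 higher member. Across the 3 levels the F test called 1928 genes and 10 members, and 1105 genes without a filter.

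With single libraries left out, the genes called ranged from 1477 to 2981 at 8% against 21%, 63 to 878 at 1% against 21%, 1 to 433 at 1% against 8% and 775 to 2241 in the F test. Genes at 8% against 21% were 1799 without 21% replicate 1 and 1598, 1791 and 1477 without 8% replicates 1 to 3. At 1% against 21% they numbered 76 without 21% replicate 1, 282 and 878 without 21% replicates 2 and 3, 169 and 300 without 8% replicates 1 and 3, and 63, 75 and 209 without 1% replicates 1 to 3. At 1% against 8% they numbered 123 and 433 without 21% replicates 2 and 3 and 1 to 7 without any other library. The F test called 6 members without 21% replicate 1 and 16 without 21% replicate 3. Lower members ranged from 9 to 15, 1 to 9 and 0 to 0 in the 3 comparisons, higher members from 1 to 2, 0 to 1 and 0 to 1, and members in the F test from 6 to 16. Same-numbered libraries did not deviate together (correlations of −0.30 to 0.10, beside −0.13 to 0.25 for pairs of different number). The values thus gave no sign of pairing by number, and the labels state none. With 3 libraries a level, this check cannot show that there was no pairing. With the replicate number as a block, 1849, 72 and 1 genes were called in the 3 comparisons and 756 in the F test, with 12, 1 and 0 lower members and 1, 0 and 0 higher. The calls lost under the block were Chchd4, Tomm22, Tomm40l and Tomm70a at 8% and Timm8a1, Tomm40 and Timm8b at 1% against 21%. The cause of these changes was not tested.

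Changes of sign were followed for the called members and for Tomm20, Timm23, Timm44, Hspa9, Hspe1 and Htra2. Among these, estimates that changed sign were all of uncalled differences. Other members changed sign too and are not listed. An example is Grpel2 at 8% against 21%, at 0.06 in the main fit and −0.10 without 21% replicate 3, called in neither. At 1% against 8%, Hspa9 was 0.00027 with median-ratio and 0.00023 with quantile scaling, and −0.087 to 0.081 with single libraries left out. Hspe1 was −0.022 after quantile normalization, −0.016 after scaling to the same FPKM sum and −0.037 to 0.072 with libraries left out. Timm8b was −0.013, −0.0034 and −0.026 to 0.072 under the same settings, and Tomm20 −0.088 to 0.012 with libraries left out. At 8% against 21%, leaving out libraries gave −0.24 to 0.0040 for Htra2 and −0.16 to 0.0052 for Tomm20. At 1% against 21%, Htra2 was −0.019 after scaling to the same FPKM sum and −0.095 to 0.15 with libraries left out, and Tomm40l was 0.024 after median-ratio rescaling, 0.039 after quantile normalization and −0.065 to 0.032 with libraries left out. Depth is unknown, so no limit from counting could be set.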
